A study of Eutrema salsugineum with 41 samples.

Results

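The 150 genes described here had their highest leaf expression in both T4 plants of E. salsugineum that express AtCMT3, with 1 plant from each of 2 lineages. They were chosen from the RNA-seq values by a score, the lower log2 (TPM + 1) value of AtCMT3-L1T4 and AtCMT3-L2T4 minus the highest value among the other 8 libraries, where TPM is transcripts per 1000000. Genes with a mean of at least 2 TPM over all libraries, the T4 plants included, were scored, without the 200 with the highest mean. These are 16302 of the 26352 genes in the deposited table. The score was above 0 in 1271 genes, or 7.8% of those scored, and the 150 highest scores were kept. Because these values chose the genes, the gap between the T4 plants and the others is a description and not a finding. In the opposite direction, 873 genes, or 5.36%, were lowest in both T4 plants.

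E. salsugineum is a relative of A. thaliana that has lost CMT3, the DNA methyltransferase that maintains CHG methylation in A. thaliana. All plants are of the Shandong ecotype, were grown on soil in long days and gave cauline leaves for RNA. The transgenic plants carry a genomic copy of A. thaliana CMT3 under its native promoter, and wild type carries none. RNA was sequenced from wild type, from AtCMT3-L1 in generations T3, T4 and T5, from AtCMT3-L2 in generations T3 to T6, and from 2 T2 plants of AtCMT3-L3, namely AtCMT3-L3T2 and AtCMT3-L3T2b. Each of these 10 plants gave 1 library. Wild type is 1 plant, as is every generation sampled in AtCMT3-L1 or AtCMT3-L2. Only AtCMT3-L3 has 2 plants that share lineage and generation. No difference described here therefore has replicates on both sides, and no p-value is given. Floral dip can insert several copies that segregate, and the labels do not give the copies that a plant holds.

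Leaf starch is made in the chloroplast by day and broken down at night. In A. thaliana its synthesis starts with ADP-glucose pyrophosphorylase, and its breakdown involves glucan phosphorylation, phosphatases and phosphatase-like proteins that act at the granule, and amylases. These functions are background to 3 of the genes that could be named, and whether starch genes are more common in the set than elsewhere was not tested. The processed files pair no names with the gene identifiers. Names were available only through a list in the study that pairs genes gaining CHG methylation with A. thaliana orthologs, of which 1998 pairs were at hand. It named 14 of the 150 genes (9.33%) and 1640 of the 16302 genes scored (10.1%). No identifier matched the RefSeq gene table, so no position or sequence is given.

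The values of 5 libraries, both T4 libraries among them, were deposited as FPKM and those of the other 5 as TPM, and all were scaled to the same sum. Unit of deposit and generation are partly confounded, since wild type and both T3 plants share the unit of the T4 plants while the T2, T5 and T6 plants have the other. Between 19270 and 20122 genes were above 0 per library, with the highest number in AtCMT3-L2T4. Reads per gene are not in the table, so the depth behind a value is unknown. Growth, harvest and library preparation of the T4 plants cannot be told apart from their generation. Across the 16302 genes, which are not independent replicates, the T4 libraries had a Pearson correlation of 0.951 with each other (Spearman 0.961). Their correlations with AtCMT3-L2T5 were 0.936 and 0.933, and with AtCMT3-L2T6 0.913 and 0.898. With wild type, the T3 plants, AtCMT3-L1T5 and the AtCMT3-L3 plants the values lay between 0.795 and 0.868. Of the flower markers set out for a check of tissue, only the ortholog of SEPALLATA 2, Thhalv10021390m, could be matched. It was at 0.283 and 2.75 TPM in the T4 plants and reached 47.5 TPM in AtCMT3-L3T2b, with 8.92 TPM in AtCMT3-L3T2. The leaf markers could not be matched, so the labelled tissue was not checked.

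Over the 150 genes the median expression was 43.4 TPM in AtCMT3-L1T4 and 44.8 TPM in AtCMT3-L2T4. The late AtCMT3-L2 plants, T5 and T6, had medians of 21.4 and 18.8 TPM. The remaining 6 libraries had medians that were lowest in AtCMT3-L3T2, at 4.82 TPM, and highest in AtCMT3-L2T3, at 10.1 TPM, with 8.10 TPM in wild type. The libraries therefore fell in 3 levels, with the T4 plants highest by choice of the genes. The late AtCMT3-L2 plants were in between, and wild type, T3, AtCMT3-L1T5 and AtCMT3-L3 lowest. For reference, the median log2 (TPM + 1) of all genes scored lay between 4.17 in AtCMT3-L2T5 and 4.49 in AtCMT3-L2T3. Scaling every library to the same sum keeps this median similar, so it is no check of the 3 levels. The 150 genes made up 1.92% and 1.79% of all TPM in the T4 plants, 0.890% in AtCMT3-L2T5, 0.779% in AtCMT3-L2T6 and between 0.250% and 0.417% in the other libraries. In leaf tissue as a whole, more cells of a kind and more RNA per cell cannot be told apart.

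**Figure D1:**
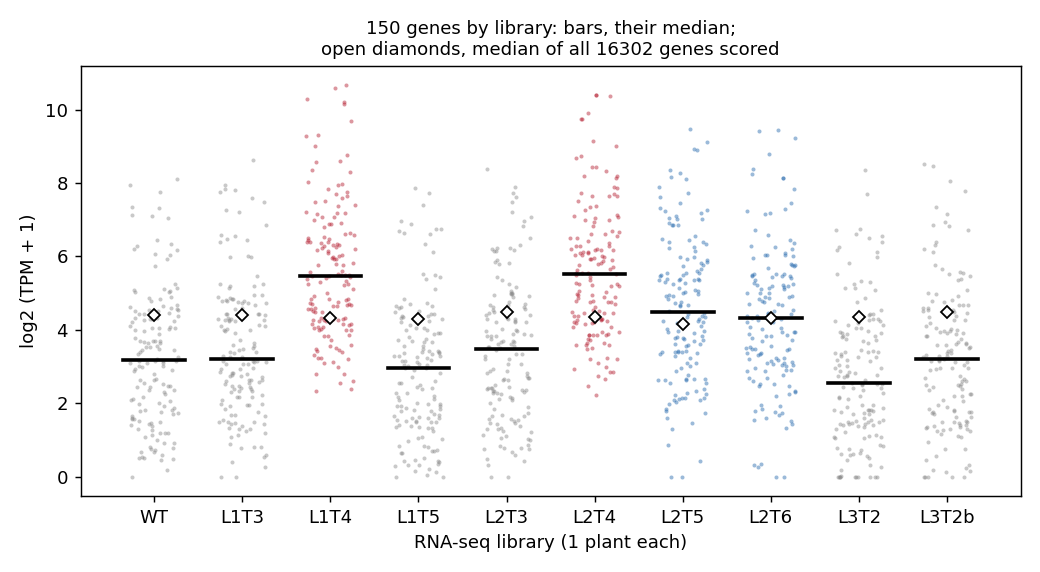
Expression of the 150 genes (points, 1 per gene) as log2 (TPM + 1) in each of the 10 RNA-seq libraries, with the median of the 150 as a bar and the median of all 16302 genes scored as an open diamond. The T4 plants (red) have medians of 43.4 and 44.8 TPM and the late AtCMT3-L2 plants (blue) 21.4 and 18.8 TPM, while the other 6 (grey) lie between 4.82 and 10.1 TPM.

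The score ran from 0.43 to 3.62 with a median of 0.67, and 17 genes scored above 1. The lower T4 value was between 1.35 and 36.8 times the highest TPM elsewhere, with a median of 1.61 times, so for most of the genes the margin over the next plant was small. The 3 genes just inside the threshold scored 0.437, 0.430 and 0.429, and the 3 just outside 0.428, 0.426 and 0.425, so the set has no natural border. Both T4 plants were at similar levels, with a median absolute difference of 0.16 on the log2 scale in the 150 genes and 0.15 in all genes scored. Of the 150, 89 were higher in AtCMT3-L1T4 than in AtCMT3-L2T4, against 48.9% of all genes scored, and the largest difference was 2.58. In wild type 17 of the genes were below 1 TPM, 64 were between 1 and 10 TPM, and 69 were at 10 TPM or more. These classes hold 1.45%, 27.4% and 71.2% of all genes scored. The genes below 1 TPM in wild type had medians of 13.2 and 13.6 TPM in the T4 plants. The mean of at least 2 TPM counts the T4 plants. Some genes of both classes below 10 TPM in wild type were therefore scored only through the T4 plants. Nothing is read from the shares of the classes. The genes at 10 TPM or more had a median of 22.3 TPM in wild type and of 96.7 and 97.0 TPM in the T4 plants. Thus the genes range from hardly expressed to well expressed ones, with a mean over the libraries between 2.04 and 468 TPM.

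The 12 genes with the highest scores had between 11.0 and 1536 TPM in the T4 plants. In 10 of the 12 the highest of the other libraries was a late AtCMT3-L2 plant, as in 22.2% of all genes scored and 63.2% of those with a score above 0. Thhalv10005531m, with the highest score, had 18.2 TPM in AtCMT3-L1T4 and 17.0 TPM in AtCMT3-L2T4, 0.442 TPM in wild type and 0.463 TPM in AtCMT3-L1T3, and was listed at 0 in the remaining 6 libraries. It was thus at or near 0 outside the T4 plants, and it met the mean of 2 TPM only through them. Thhalv10000386m, an abundant transcript with the fourth score, had 1536 and 1335 TPM in the T4 plants and between 17.8 TPM in AtCMT3-L1T5 and 442 TPM in AtCMT3-L2T6 elsewhere, with a median of 71.4 TPM. Unlike Thhalv10005531m it was also above wild type in AtCMT3-L2T5, with 286 TPM. The annotation at hand gives neither gene a name, and of the 12 only Thhalv10019285m has a listed ortholog.

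**Figure D2:**
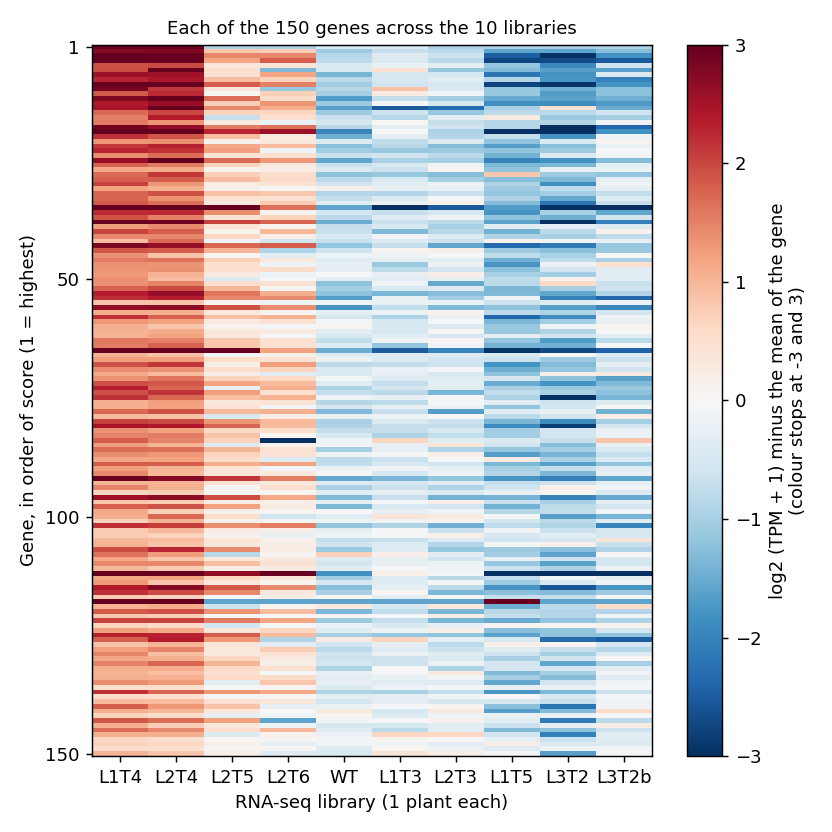
Each of the 150 genes (rows, in order of score) across the 10 libraries (columns), colored by log2 (TPM + 1) minus the mean of the gene. Both T4 columns are the highest in every row by choice of the genes, and AtCMT3-L2T5 and AtCMT3-L2T6 are both above the other 6 columns in 97 of the rows.

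The named genes of starch metabolism were 3 of the 14. Thhalv10020379m is the ortholog of LSF1, a glucan phosphatase-like protein needed for normal starch breakdown in A. thaliana. Its expression was 37.1 and 49.03 TPM in the T4 plants, 19.2 and 14.3 TPM in AtCMT3-L2T5 and AtCMT3-L2T6, and between 0.554 and 2.17 TPM in the other 6. The T4 plants and the late AtCMT3-L2 plants thus stood well apart from wild type with 1.12 TPM, and the score was 0.92. Thhalv10018099m is the ortholog of AMY3, a chloroplast alpha-amylase that cleaves glucans. It had 118 and 126 TPM in the T4 plants, 83.4 TPM in AtCMT3-L2T5, 63.7 TPM in AtCMT3-L2T6 and between 11.8 and 19.0 TPM in the other 6. The gap to AtCMT3-L2T5 was small, with a score of 0.50, and that to all but the late AtCMT3-L2 plants large. With the values as deposited the score of Thhalv10018099m was -0.0277, with AtCMT3-L2T5 above the lower T4 value. Thhalv10007379m is the ortholog of APL2, a large subunit of ADP-glucose pyrophosphorylase, an enzyme of starch synthesis and not of breakdown. It had 8.41 and 10.5 TPM in the T4 plants, 3.73 and 3.93 TPM in the late AtCMT3-L2 plants and between 0.336 and 2.33 TPM elsewhere, and its score was 0.93. Thhalv10007379m met the mean of 2 TPM only through the T4 plants. Of 20 genes in a list of starch breakdown drawn up from A. thaliana, only 3 could be matched and scored. LSF1 and AMY3 are among the 150, and the third, Thhalv10016419m, the ortholog of BAM6, a beta-amylase, is not. It had 50.4 and 51.6 TPM in the T4 plants and 57.6 TPM in wild type, the highest value. The score chose LSF1 and AMY3, and 3 genes do not describe the pathway, so nothing is read from this count. The list was drawn up with the study's terms for up-regulated genes in these libraries known.

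Of the other named genes, Thhalv10019285m is the ortholog of AT1G71000, which encodes a protein with a DnaJ domain, the domain of HSP40 co-chaperones. It had 18.9 and 19.8 TPM in the T4 plants, and 4.28 and 4.03 TPM in the late AtCMT3-L2 plants. Elsewhere it was at 0.862 TPM or less, with 0 listed in AtCMT3-L1T5 and AtCMT3-L3T2, and its score of 1.91 was the second highest of the 150. This gene thus had the highest score of the 14 named ones, but like Thhalv10007379m it met the mean of 2 TPM only through the T4 plants.

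Thhalv10011729m is the ortholog of DYW1, a factor in the editing of a plastid transcript in A. thaliana. It had 30.9 and 26.0 TPM in the T4 plants, and elsewhere it lay between 1.73 TPM in AtCMT3-L2T3 and 18.0 TPM in AtCMT3-L2T5, with a median of 2.40 TPM. Thhalv10021279m is the ortholog of AT3G13740, a ribonuclease III family protein known as RNC4. It had 98.0 and 97.0 TPM in the T4 plants and between 13.0 TPM in AtCMT3-L1T5 and 62.5 TPM in AtCMT3-L2T5 elsewhere. Both genes were next highest in AtCMT3-L2T5, with scores of 0.51 and 0.63.

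Thhalv10000152m is the ortholog of RIBA2, of the riboflavin biosynthesis family. It had 133.1 and 132.8 TPM in the T4 plants, 80.2 TPM in AtCMT3-L2T5, 86.7 TPM in AtCMT3-L2T6 and at most 26.4 TPM in the other 6. Thhalv10009371m is the ortholog of HMGB3, a high mobility group chromatin protein. It had 383 and 322 TPM in the T4 plants and between 79.8 TPM in AtCMT3-L1T5 and 211 TPM in AtCMT3-L2T5 elsewhere, with 139 TPM in wild type. Thhalv10009371m was well expressed in every plant. Both genes scored 0.61.

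Thhalv10016591m is the ortholog of MAC5B, a component of a complex linked to splicing and immunity. It had 38.7 and 37.4 TPM in the T4 plants and at most 21.8 TPM elsewhere. Thhalv10016277m, the ortholog of AT2G28360, a SIT4 phosphatase-associated family protein, had 21.2 and 20.9 TPM against at most 14.2 TPM. Thhalv10021208m, the ortholog of AT3G10300, an EF-hand family protein, had 117.5 and 113.6 TPM against at most 75.8 TPM. In these 3 genes the highest other plant was AtCMT3-L2T5. In the next 3 it was AtCMT3-L2T6. Thhalv10007891m, the ortholog of AT1G33970 of the AIG1 family of GTP-binding proteins, had 54.4 and 51.1 TPM against at most 35.7 TPM. Thhalv10008108m, the ortholog of AT1G17665, had 9.01 and 8.29 TPM against at most 5.79 TPM. Thhalv10006519m, the ortholog of SPIRRIG, a BEACH domain protein needed for normal trichome shape in A. thaliana, had 17.0 and 17.2 TPM against between 8.23 and 12.2 TPM. With the values as deposited the scores of these last 3 genes were also below 0, at -0.00613, -0.00467 and -0.0438. In all 14 named genes the highest library outside T4 was AtCMT3-L2T5 or AtCMT3-L2T6, which also held for 84.7% of the 150 genes, 63.2% of those with a score above 0 and 22.2% of all genes scored.

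**Figure D3:**
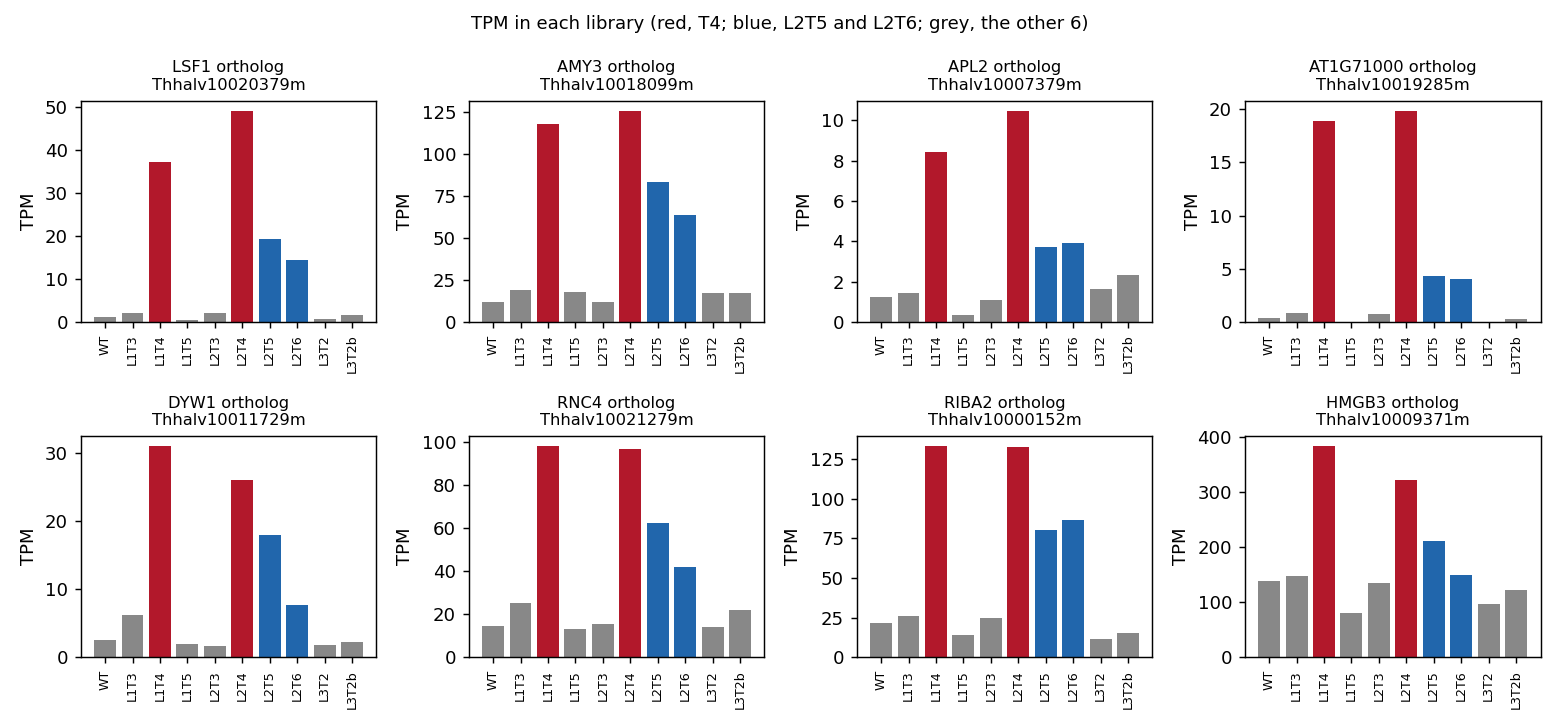
TPM in each of the 10 libraries for 8 of the 14 named genes, with 1 bar per plant and an axis from 0 in each panel. The ortholog of LSF1 has 37.1 and 49.03 TPM in the T4 plants (red), 19.2 and 14.3 TPM in the late AtCMT3-L2 plants (blue) and at most 2.17 TPM in the other 6 (grey), and the ortholog of HMGB3 spans 79.8 to 383 TPM.

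Compared with the T3 plant of the same lineage, which is deposited in the same unit, the 150 genes were higher by a median of 1.85 on the log2 (TPM + 1) scale in both AtCMT3-L1 and AtCMT3-L2. The difference was above 1 in 136 genes in AtCMT3-L1, where 5.99% of all genes scored had such a difference, and in 124 genes in AtCMT3-L2, where 9.59% had. The difference was above 1 in both lineages in 121 genes (4.2% of all genes scored). These contrasts are part of the choice and nothing is read from the counts. The T3 plants themselves were close to wild type for these genes, with median differences of 0.18 in AtCMT3-L1T3 and 0.16 in AtCMT3-L2T3, and 10 and 2 genes were above wild type by more than 1 (3.56% and 2.71% of all genes scored). From T4 to T5 the lineages differed. AtCMT3-L1T4 was above AtCMT3-L1T5 by a median of 2.54, with 137 genes above 1 (7.1% of all genes scored). AtCMT3-L2T4 was above AtCMT3-L2T5 by 0.86, with 48 genes above 1 (5.5%). The difference was above 1 in both lineages in 45 genes (1.12%). Over all genes scored the median difference from T5 to T4 was 0.0007 in AtCMT3-L1 and 0.17 in AtCMT3-L2. The count of 48 was 21 with the values as deposited, 38 with median-ratio scaling and 24 with a pseudocount of 10.

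Compared with wild type, 78 genes were higher by more than 1 in AtCMT3-L2T5 (7.25% of all genes scored) and 71 in AtCMT3-L2T6 (8.15%), with median differences of 1.06 and 0.89. Lower by more than 1 were 23 genes in AtCMT3-L1T5 (5.15%), 35 in AtCMT3-L3T2 (7.96%) and 11 in AtCMT3-L3T2b (4.78%), with median differences of -0.42, -0.45 and 0.00. AtCMT3-L1T5 and AtCMT3-L3T2 thus lay below wild type for many of the genes, and both late AtCMT3-L2 plants above it. All of these differences share the 1 wild-type library.

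The order among the other 8 plants was not used in the choice beyond their highest value. Of these 8, AtCMT3-L2T5 was the highest in 85 of the genes and AtCMT3-L2T6 in 42, together 127 of 150. Both were above all of the other 6 in 97 genes, or 64.7%, against 9.3% of all genes scored and 38.7% of the 1271 genes with a score above 0. At the low end, AtCMT3-L3T2 was the lowest of the 8 in 62 genes and AtCMT3-L1T5 in 55. Together these were 117 genes, or 78%, against 24.5% of all genes scored and 47.8% of those with a score above 0. Since these are levels of the same libraries that chose the genes, the counts describe the set and are no test of it.

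In AtCMT3-L1 the T5 plant was below the T3 plant in 123 of the 150 genes (57.5% of all genes scored), with a median difference of -0.57. In AtCMT3-L2 the T5 plant was above the T3 plant in 136 genes (32.7%), with a median difference of 0.92. The lineages moved in these opposite directions in 113 genes, or 75.3%, against 14.9% of all genes scored and 51.1% of the 1271 genes with a score above 0. The reverse was found in 3 genes, or 2%, against 24.6% and 6.69%. In 18 genes, or 12%, both differences were larger than 1, against 0.423% and 2.28%. For the ortholog of LSF1, Thhalv10020379m, the differences were -1.03 in AtCMT3-L1 and 2.69 in AtCMT3-L2, and for that of DYW1, Thhalv10011729m, -1.30 and 2.80. The ortholog of AMY3, Thhalv10018099m, had a difference of -0.10 in AtCMT3-L1 and of 2.72 in AtCMT3-L2. All 14 named genes had a negative difference in AtCMT3-L1 and a positive one in AtCMT3-L2, although in some the size was under 0.05. From AtCMT3-L2T5 to AtCMT3-L2T6 the median difference was -0.13. In AtCMT3-L2T6, 15 genes were lower by more than 1 (3.07% of all genes scored) and 4 were higher (4.93%).

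**Figure D4:**
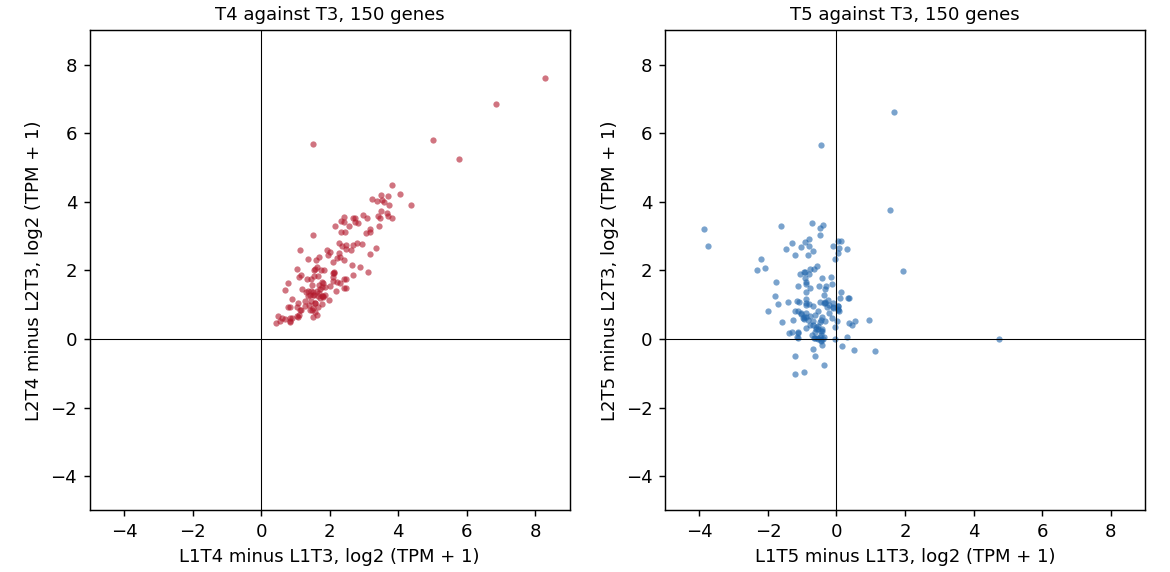
Differences in log2 (TPM + 1) from the T3 plant of the same lineage for the 150 genes (points), with AtCMT3-L1 on the horizontal and AtCMT3-L2 on the vertical axis, for T4 (left, red) and T5 (right, blue). All 150 genes lie above 0 on both axes for T4, which follows from their choice, whereas for T5 113 genes lie left of 0 in AtCMT3-L1 and above 0 in AtCMT3-L2.

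AtCMT3 expression did not follow the same order of plants. AtCMT3 was at 64.5 TPM in AtCMT3-L1T4 and 190 TPM in AtCMT3-L2T4, and at 0.225 TPM in wild type. AtCMT3 was highest in the AtCMT3-L3 plants, with 234 and 372 TPM, where the 150 genes had medians of 4.82 and 8.15 TPM against 8.10 TPM in wild type. Both AtCMT3-L3 plants were below wild type in 67 of the genes, against 28.5% of all genes scored. AtCMT3-L2T6, with 5.39 TPM of AtCMT3, was among the plants with intermediate levels of the 150 genes. AtCMT3-L1T5, with 97.8 TPM of AtCMT3, had more transgene RNA than AtCMT3-L1T4 and a median of 6.82 TPM for the genes. TUB4 (Thhalv10003210m), which the study used as the reference in qRT-PCR, was at 83.7 and 76.2 TPM in the T4 plants, and elsewhere it ran from 57.3 TPM (AtCMT3-L2T5) to 171 TPM (AtCMT3-L2T6), so it did not share the pattern.

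The set depends on which plants it is compared with. Without AtCMT3-L2T5 the median score of the 150 genes was 0.84 and 88 of them were chosen again. Without both late AtCMT3-L2 plants the median was 1.41 and 71 were chosen again, in a comparison added once the values had been seen. Against only wild type and the T3 plants, the libraries that share the unit of the T4 plants, the median score was 1.55, 3986 genes scored above 0, and 58 of the 150 were chosen again. In the values as deposited 120 of the 150 had a score above 0.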

How the data were processed

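RNA from cauline leaves of individual plants was sequenced by the authors from a stranded mRNA library, trimmed with Trimmomatic, aligned to the E. salsugineum v1.0 genome with HISAT2 and quantified with StringTie 1.3.3b. The authors deposited 1 table for all 10 RNA libraries under the name FPKM. From the sums, 5 deposited columns hold FPKM and the other 5 deposited columns hold TPM, each of which sums to 1000000. Every column was scaled to a sum of 1000000, and log2 (TPM + 1) was used throughout. Such differences understate the change of low genes. StringTie values are not read counts, so no count test was applied, and whether quantification used strand is not given in the sources used here.

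The genes and the lists were chosen with earlier results of these data known. Named were AtCMT3, members with a listed ortholog, matched genes of the lists, genes that the study names, and the 12 highest scores, of which only 2 genes without an ortholog are printed by identifier. The lists covered starch breakdown, the circadian clock, cold and water deficit, light harvesting, nitrate assimilation, dark and sugar starvation, shade, heat shock, and other organs, and only 5 of their genes could be matched, 3 of them for starch breakdown. Of the remaining 2, the ortholog of BCAT2 in the starvation list had a score of -1.81 and that of SEPALLATA 2 a score of -5.24. A planned measure of H3K9me2 over the genes and a search of their promoters were not made, because no gene coordinates or sequences could be joined to the identifiers. The aligned ChIP-seq reads were not used here, nor were the bisulfite sequencing or the study's tables of its own comparisons. The IBM1-like genes that the study names are not among the 150. Of these, Thhalv10020080m was below the mean of 2 TPM and was not scored. It had 0.742 and 1.14 TPM in the T4 plants and at most 0.612 TPM elsewhere. Thhalv10023846m and Thhalv10029199m were scored, at -0.0707 and -0.176. Ortholog pairs came from a list of the study of which only a part was at hand. The code of the score was tested on simulated data with T4 differences built in, which says nothing about the genes chosen here. Python 3.11.15, numpy 2.4.6, pandas 2.3.3 and matplotlib 3.10.9 were used.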

Additional observations from a re-analysis of the deposited data

Results flagged for a closer look

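The T5 plant was below the T3 plant in AtCMT3-L1 and above it in AtCMT3-L2 in 113 of the 150 genes. The same contrast thus moved in opposite directions in the lineages. This held for 75.3% of the 150, against 14.9% of all genes scored and 51.1% of the 1271 genes with a score above 0. Each plant gave 1 library, so the difference between the lineages was not tested. In each lineage the T5 library was deposited as TPM and the T3 library as FPKM. With the values as deposited the count was 89, and with median-ratio scaling it was 114.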

How the results depend on the processing

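Each RNA label has 1 library, so there were no replicate numbers to pair. The 2 lineages give pairs for T4 against T3 or T5, and a fit with these pairs was not run. The number of genes with a score above 0, 1271 as reported, was 134 with the values as deposited, 3986 against the other libraries deposited as FPKM only and 2288 without AtCMT3-L2T5 and AtCMT3-L2T6, and leaving out each of the 8 comparison libraries in turn gave 1301 to 1644. The median score of the members, 0.67, was 0.18 with the values as deposited, 0.49 with a pseudocount of 10, 1.55 against the libraries deposited as FPKM and 1.41 without both late AtCMT3-L2 plants. Leaving out each of these 8 in turn gave 0.67 to 0.84, the latter without AtCMT3-L2T5. Of the 150 members, 58 were chosen again against the libraries deposited as FPKM and 71 without both late AtCMT3-L2 plants, and leaving out each of the 8 in turn gave 88 to 148. The T4 libraries were not left out. A score above 0 was kept by 150 genes with median-ratio scaling and by 120 with the values as deposited. The other alternatives cannot turn a member's score below 0. The 48 genes more than 1 above AtCMT3-L2T5 in AtCMT3-L2T4 became 21 with the values as deposited, 38 with median-ratio scaling and 24 with a pseudocount of 10. With the values as deposited the score fell below 0 for Thhalv10006519m (-0.0438), Thhalv10018099m (-0.0277), Thhalv10007891m (-0.00613) and Thhalv10008108m (-0.00467). By construction, as deposited the columns of AtCMT3-L2T5 and AtCMT3-L2T6 have a larger sum than those of the T4 plants. Median-ratio scaling raised AtCMT3-L2T5 by 0.17 and lowered AtCMT3-L3T2b by 0.16 on the log2 scale. It gave 1089 genes with a score above 0 and chose 128 of the members again. The comparison without both late AtCMT3-L2 plants, and all alternatives for the counts between plants, were chosen after seeing the data. The count of genes with both late AtCMT3-L2 plants above the other 6 was 108 with the values as deposited and 110 with median-ratio scaling, against 97, and that for T5 against T3 was 89 and 114, against 113. A pseudocount cannot change these counts. The depth behind single values is unknown, so counting error could not be given.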
